A study of Rattus norvegicus with 10 samples.

Results

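The G1 cyclins, their kinases and their inhibitors were followed in rat liver after total-body irradiation (TBI). The set was the D cyclins Ccnd1, Ccnd2 and Ccnd3, the E cyclins Ccne1 and Ccne2, the kinases Cdk2, Cdk4 and Cdk6, and the inhibitors Cdkn1b and Cdkn1c. Genes were found through the accession that the array files give for each probe, matched to the current RefSeq table, and 9 of the 10 genes had a probe. These 9 genes had 18 probes, of 13426 genes that could be named and 40945 probes tested on the array. No probe could be named Cdk6. No filter on low values was applied, and all 18 probes were tested.

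D cyclins rise when growth factors reach a resting cell and bind Cdk4 and Cdk6, and the E cyclins then bind Cdk2. Both kinase complexes phosphorylate the RB protein, which releases the E2F factors that switch on genes of DNA replication. Cdkn1b (p27) and Cdkn1c (p57) bind and block these complexes, as does Cdkn1a (p21), which p53 induces after DNA damage. Most hepatocytes of an adult liver rest outside the cycle, and cyclin D1 is a well known marker of their return to it after tissue loss.

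Liver RNA came from male Wistar rats whose age the labels do not give, and each rat had an array of its own. The control group held 3 rats that received neither agent (0 Gy). The TBI group held 3 rats that received 6.5 Gy from a cobalt source according to the labels, while the methods of the study give another dose for the same rats. The MASM + TBI group held 4 rats given MASM, a derivative of the plant alkaloid matrine, by stomach tube at 30 mg/kg a day for 3 days and then the same irradiation. All livers were taken at 24 h. No group received MASM without irradiation in these arrays, so an effect of MASM itself cannot be told apart from its effect on the irradiated liver. The array names that the paper prints under its heat map put the control and TBI arrays the opposite way to the labels, and the labels are followed here. Cdkn1a, a target of p53 that irradiation induces, was high in all 7 rats labelled as irradiated and low in the 3 labelled as control, as given below.

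Whole liver was measured, so fewer cells of a type and less RNA per cell cannot be told apart in any value below. On each of the 10 arrays all 8 hepatocyte markers stood well above background, and the log2 of their summed signal lay at 20.0 to 20.2 in each group. Each sum below is of this kind and is carried mostly by the brightest markers of its list. T cell markers summed to 9.18 to 9.64 in control rats, 8.0 to 8.86 in TBI rats and 7.84 to 8.74 in MASM + TBI rats, with Cd3e and Cd5 not well above background in any group. Stellate cell markers summed to 11.7 to 11.9, 11.3 to 11.5 and 11.3 to 11.5 in the same order, and all 4 measured were well above background everywhere. Endothelial markers summed to 13.6 to 13.9, 14.0 to 14.3 and 13.9 to 14.2, with all 5 measured well above background everywhere. NK cell markers summed to 10.0 to 11.2, 9.27 to 10.96 and 8.58 to 9.74, with Ncr1 not well above background in control and MASM + TBI rats. Kupffer cell markers summed to 15.5 to 16.0, 15.5 to 16.4 and 15.2 to 15.5, and all 7 were well above background everywhere. The sums were 8.34 to 9.87, 8.78 to 9.33 and 8.14 to 8.97 for erythroid cells, and 8.64 to 9.05, 8.49 to 9.39 and 8.46 to 8.97 for cholangiocytes. Of single markers, the T cell genes Cd3e and Cd3g, the B cell gene Cd79b and the stellate cell gene Lrat were called lower in both irradiated groups, as was the T cell gene Cd2 in TBI rats. In TBI rats 3 of 7 T cell, 1 of 3 B cell and 1 of 4 stellate cell markers were called lower, against 3.66% of all genes. In MASM + TBI rats these were 2 of 7, 1 of 3 and 1 of 4, against 2.46%. Log2 fold changes after TBI ran from -3.71 to 0.55 for T cell markers and from -0.62 to 0.01 for stellate cell markers. Cd79b was not well above background in any irradiated rat, nor was Cd2 in any TBI rat. The part of these cells in the results, those of S phase and cycling genes included, was not tested. The 3 control rats and MASM + TBI rat 3 lay on slide 1, the 3 TBI rats on slide 2 and the other MASM + TBI rats on slide 3, so TBI and slide cannot be told apart. TBI rats shared no slide with MASM + TBI rats, so MASM and slide cannot be told apart between these groups. Between 57.2% and 59.9% of spots were well above background on control arrays, 64.1% to 70.1% on TBI arrays and 56.2% to 60.2% on MASM + TBI arrays, and the part of this difference in the results was not tested either. Correlations between arrays of a group were 0.978 to 0.985.

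RefSeq promoter windows (assembly GRCr8, from 250 bases before the start site to 50 bases after it, each 300 bases) were held for Ccnd3, Ccne1, Cdk2, Cdk4 and Cdkn1b, and those of Ccnd1, Ccnd2, Ccne2, Cdk6 and Cdkn1c were not among them. Of the genes with a window, Ccnd3, Ccne1, Cdk2 and Cdk4 had every TBI rat below every control rat on the brightest probe. Only Ccnd3 of these was called, and the log2 fold change of Cdk4 between TBI and control rats was the smallest of the set. The windows of Ccnd3, Ccne1, Cdk2 and Cdk4 are printed. They are given 5′ to 3′ on the strand of the gene, with the Sp1 letters GGGCGG on either strand and the E-box letters CACGTG in capitals.
Ccnd3 (chr9:20897826-20898125, minus strand): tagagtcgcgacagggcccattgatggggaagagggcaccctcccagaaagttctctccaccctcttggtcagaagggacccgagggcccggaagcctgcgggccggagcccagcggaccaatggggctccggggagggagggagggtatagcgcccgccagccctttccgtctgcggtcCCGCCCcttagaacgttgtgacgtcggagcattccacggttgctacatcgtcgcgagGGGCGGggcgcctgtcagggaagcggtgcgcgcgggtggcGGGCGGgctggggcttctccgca
Ccne1 (chr1:99927860-99928159, minus strand): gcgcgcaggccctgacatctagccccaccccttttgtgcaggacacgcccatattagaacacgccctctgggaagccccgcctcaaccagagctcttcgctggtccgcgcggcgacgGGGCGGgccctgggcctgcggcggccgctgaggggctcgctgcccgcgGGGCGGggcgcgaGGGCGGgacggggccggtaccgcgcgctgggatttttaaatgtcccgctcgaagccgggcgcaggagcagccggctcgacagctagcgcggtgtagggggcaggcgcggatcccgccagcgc
Cdk2 (chr7:1721829-1722128, minus strand): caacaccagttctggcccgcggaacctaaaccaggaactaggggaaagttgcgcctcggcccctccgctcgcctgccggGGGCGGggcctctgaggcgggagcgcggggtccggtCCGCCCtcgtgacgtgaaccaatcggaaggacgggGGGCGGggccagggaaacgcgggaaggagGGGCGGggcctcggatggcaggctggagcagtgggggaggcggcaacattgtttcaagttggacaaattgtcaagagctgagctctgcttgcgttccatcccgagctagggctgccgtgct
Cdk4 (chr7:64771203-64771502, plus strand): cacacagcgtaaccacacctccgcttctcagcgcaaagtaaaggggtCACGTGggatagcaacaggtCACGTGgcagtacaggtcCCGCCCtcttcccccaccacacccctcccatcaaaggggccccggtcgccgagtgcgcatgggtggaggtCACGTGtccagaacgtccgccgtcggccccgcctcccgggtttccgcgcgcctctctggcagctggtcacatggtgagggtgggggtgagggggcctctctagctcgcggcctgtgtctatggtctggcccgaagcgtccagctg

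The Sp1 letters stood in 5 of the 5 windows, against 33.1% of 33469 RefSeq windows of the same length. They occurred 3 times in Ccnd3, 3 times in Ccne1, 4 times in Cdk2 and once each in Cdk4 and Cdkn1b (chr4:169491254-169491553, plus strand). The 5 windows were 64.7% to 73.3% G and C, which the letters themselves are made of. The E-box letters, which Myc and Usf proteins can bind, stood 3 times in Cdk4, at -203, -183 and -95 from the start site, did not overlap its Sp1 match at -165, and were in no other of the 5 windows, against 6.42% of all windows. None of the 5 windows held the E2F letters TTTNNCGC (4.92% of all windows), the CHR letters TTTGAA (18.3%), the AP-1 letters TGANTCA (7.33%), the FOXO letters GTAAACA (3.78%), the CRE letters TGACGTCA (1.83%) or the p53 response element (0.0598%), each searched on both strands. A match is a match of letters only, and its absence says nothing of the factor.

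The first question was whether TBI alone changed the G1 genes. Ccnd2 rose, and Ccnd3 and Ccne2 fell, while the other 6 genes measured did not pass the test (an adjusted p under 0.05 in limma, adjusted over all probes tested). Each gene is given by its brightest probe unless another is named, and each value is a log2 signal after quantile normalization, which allows a gene to be compared between rats but not with another gene. Of the 9 genes, 1 was called higher, against 2.97% of all genes, and 2 were called lower, against 3.66%. At an unadjusted p under 0.05 limma gave 5, those 3 with Ccne1 and Cdk2, against 25.3% of all genes. The methods' t-test gave 4, Ccnd2, Ccnd3, Ccne1 and Ccne2, against 15.8%, and 0 after adjustment, against 0.0372%. The median log2 fold change of the 9 genes was -0.31, and that of all genes was -0.01. At the thresholds of the study (an unadjusted p under 0.05 and at least 1.5-fold), applied here to the p of limma in place of the p that the study took, 2 of the 9 passed, Ccne1 and Ccne2, against 13.1% of all genes. The groups did not overlap for 6 of the 9 genes, with 1 higher and 5 lower in TBI rats, while 13% of all genes were without overlap and higher and 17.5% without overlap and lower. Over all probes, 43.3% of the calls were higher, but 24.3% when arrays were scaled to their 75th percentile, where the set again had 3 calls. Across both irradiated groups, all 7 rats lay below every control rat for Ccnd3, Ccne2 and Cdk2 on the brightest probe, as 6.60% of all genes did, while on the dimmer Cdk2 probe 6 of the 7 did. No brightest probe of the set lay above every control rat in all 7, as 5.01% of all genes did.

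**Figure D1:**
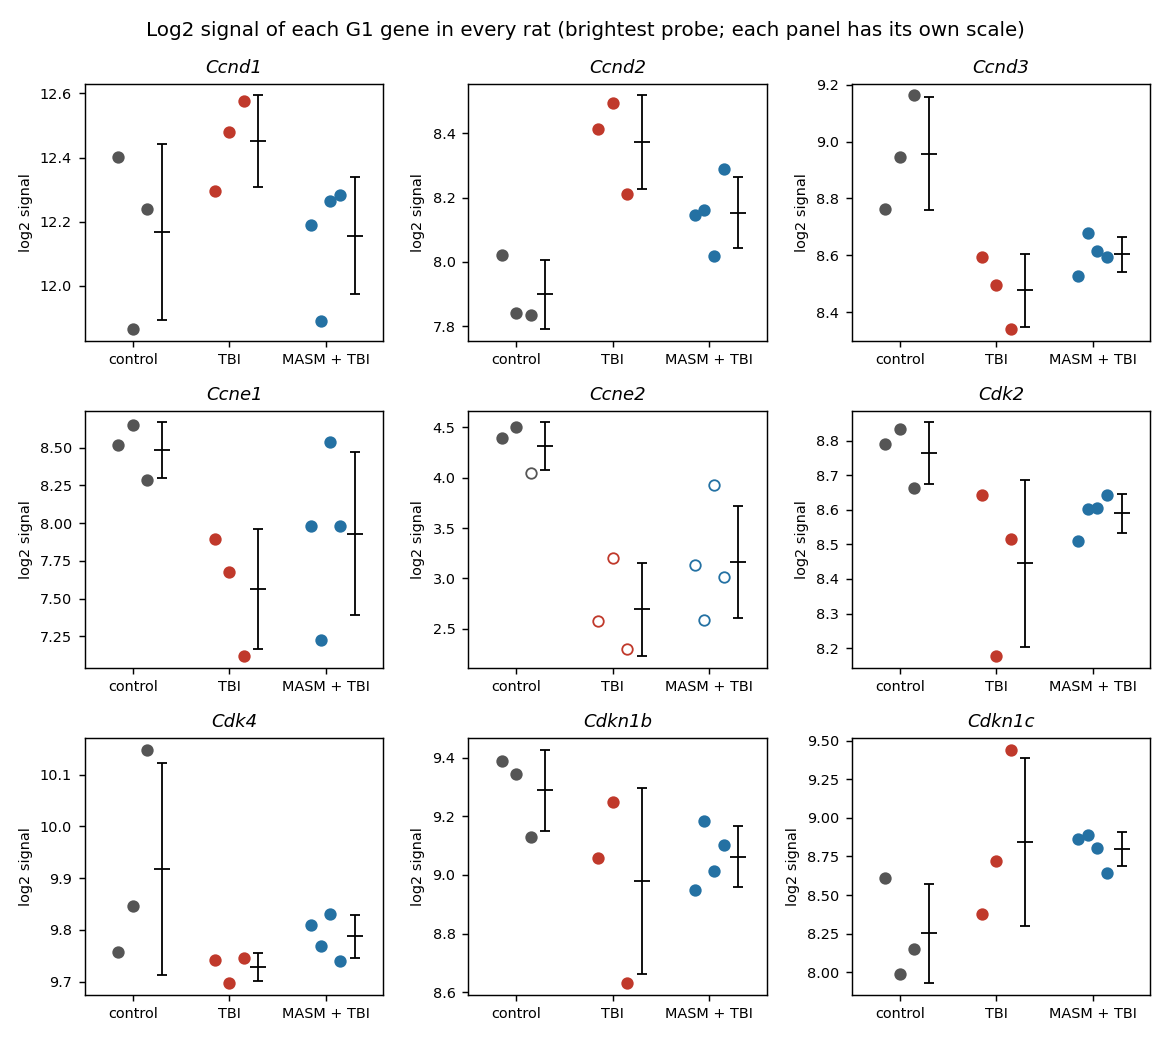
Log2 signal of the 9 G1 genes with a probe in every rat (vertical axis, a scale of its own in each panel) by group (horizontal axis). Points are rats, open where the probe was not well above background, and the bars beside them are the mean and SD (n = 3, 3 and 4). All 7 irradiated rats lie below the 3 control rats for Ccnd3, Ccne2 and Cdk2.

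Of the 3 D cyclins, the partners of Cdk4 and Cdk6, Ccnd2 rose, Ccnd3 fell and Ccnd1 did not pass the test. Ccnd2 was at 8.02, 7.84 and 7.83 in control rats and at 8.41, 8.49 and 8.21 in TBI rats. Every TBI rat lay above every control rat. This rise of 0.47 on the log2 scale (SE 0.11, adjusted p = 0.0419) was 1.39-fold and under the fold that the study required. Ccnd3 was at 8.76, 8.95 and 9.16 in control rats and at 8.60, 8.49 and 8.34 in TBI rats, again with no overlap. It fell by 0.48 on the log2 scale (SE 0.12, adjusted p = 0.0496), or 1.40-fold, and the adjusted p lay just inside the threshold. Both genes had a single probe, which was well above background on all arrays. Ccnd1 was at 12.40, 11.87 and 12.24 in control rats and at 12.30, 12.48 and 12.58 in TBI rats, and the groups overlapped. Its log2 fold change was 0.28 (95% interval -0.09 to 0.65, adjusted p = 0.334), and its other probe gave 0.27 (adjusted p = 0.502).

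Both calls were close to the threshold, and the plot of the adjusted p by way of processing shows how often they were lost. The Ccnd2 call was lost without control rat 1, 2 or 3 (adjusted p = 0.0603, 0.109 and 0.131), without TBI rat 1 or 2 (0.0865 and 0.102) and without MASM + TBI rat 1 or 2 (0.0684 and 0.0656). The Ccnd3 call was lost without control rat 2 or 3 (adjusted p = 0.109 and 0.133), without TBI rat 1, 2 or 3 (0.0572, 0.0985 and 0.0880) and without MASM + TBI rat 1, 2, 3 or 4 (0.0743, 0.0711, 0.0609 and 0.0728). Both calls were also lost in a model of only the TBI and control rats (adjusted p = 0.104 for Ccnd2 and 0.141 for Ccnd3), in the methods' t-test (0.257 and 0.293) and with the replicate block (0.0685 and 0.138), and that of Ccnd3 with normexp background correction (0.0598). MASM + TBI rats bear on this comparison through the shared estimate of the spread. The direction stayed in each fit that left out a rat, with Ccnd2 at 0.41 to 0.56 and Ccnd3 at -0.58 to -0.38.

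The E cyclins, which bind Cdk2 and carry the cell into S phase, had the lowest log2 fold changes of the set in TBI against control rats. Ccne2 was at 4.39, 4.50 and 4.05 in control rats and at 2.58, 3.20 and 2.30 in TBI rats. Every TBI rat lay below every control rat, but the probe was not well above background on any TBI array nor in control rat 3. The fall of Ccne2 after TBI was therefore at least 2.54-fold (adjusted p = 0.0350), a bound that sets each TBI array at the higher of its own value and the lowest signal well above background on that array. The other Ccne2 probe was not well above background on any array, at 3.03, 3.31 and 3.54 in control rats and at 1.49 to 1.53 in TBI rats. It passed the test (adjusted p = 0.000433), but no fold is given since both groups were below that mark. On TBI arrays its background-subtracted intensities were 0.99, 1.16 and -1.36. Its SD on the log2 scale was 0.02 in TBI rats and 0.26 in control rats. Values so close to background hold little of the spread between rats, so this p cannot be read against that spread. On 3 of 3 control arrays and 0 of 3 TBI arrays that probe was still marked as above its local background by the scanner software.

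Ccne1 was at 8.52, 8.65 and 8.28 in control rats and at 7.90, 7.67 and 7.12 in TBI rats. All TBI rats lay below all control rats, with TBI rat 3 lowest. A log2 fold change of -0.92 (95% interval -1.66 to -0.19, adjusted p = 0.133) did not pass the test, and the dimmer probe gave -0.94 (adjusted p = 0.236). With slide as a random block the Ccne1 value was -1.01 (adjusted p = 0.0357), in a fit with a slide correlation of -0.13 that raised the calls over all probes from 2305 to 6742. The Ccne2 call was lost without control rat 1, 2 or 3 (adjusted p = 0.0918, 0.0953 and 0.0763), without TBI rat 1 or 3 (0.0772 and 0.0715) and without MASM + TBI rat 1 or 4 (0.0577 and 0.0523). With normexp background correction, which raises all dim values by an offset, Ccne2 was at -0.15 (adjusted p = 0.131). Its call was lost too in the model of only TBI and control rats (adjusted p = 0.0525), in the methods' t-test (0.257) and with the replicate block (0.116).

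**Figure D2:**
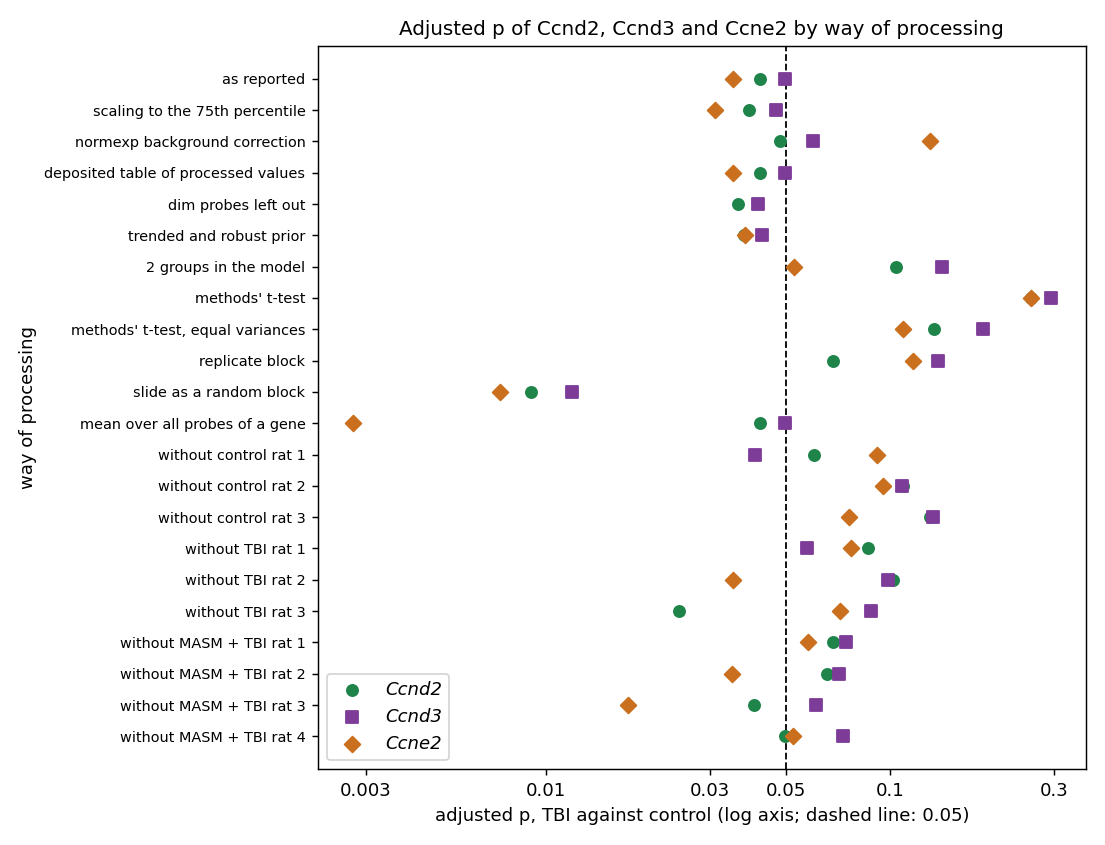
Adjusted p (horizontal log axis, dashed line at 0.05) of Ccnd2, Ccnd3 and Ccne2 in TBI against control under each way of processing (vertical axis), with Ccne2 missing where dim probes were left out. Of the 10 fits that left out a rat, 7 put Ccnd2, 9 put Ccnd3 and 7 put Ccne2 above 0.05.

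Neither kinase with a probe passed the test between control and TBI rats. Cdk2, the partner of the E cyclins, was at 8.79, 8.83 and 8.66 in control rats and at 8.64, 8.18 and 8.51 in TBI rats. The groups did not overlap, with TBI rat 1 only just below control rat 3. Its log2 fold change was -0.32 (95% interval -0.59 to -0.04, adjusted p = 0.160), and the dimmer probe gave -0.52 (adjusted p = 0.0737). Cdk4, the partner of the D cyclins, was at 9.76, 9.85 and 10.15 in control rats and at 9.74, 9.70 and 9.75 in TBI rats. Control rat 3 stood above all others, and the remaining values lay close together. The log2 fold change of Cdk4 was -0.19 (95% interval -0.42 to 0.05, adjusted p = 0.309), and its other probe gave -0.16.

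Neither inhibitor of the set passed the test in TBI rats. Cdkn1c was at 8.61, 7.99 and 8.15 in control rats and at 8.37, 8.72 and 9.44 in TBI rats. TBI rat 3 stood highest on each of the 4 Cdkn1c probes, and TBI rat 1 lay within the control range on 3 of them. The brightest probe gave a log2 fold change of 0.60 (95% interval -0.01 to 1.2, adjusted p = 0.219). The other probes gave 0.51, 0.48 and 0.63, of which the last was not called (adjusted p = 0.143) but had all 7 irradiated rats above all control rats. Cdkn1b was at 9.39, 9.35 and 9.13 in control rats and at 9.06, 9.25 and 8.63 in TBI rats, with overlap, and its log2 fold change was -0.31 (95% interval -0.67 to 0.05, adjusted p = 0.279). The second Cdkn1b probe gave 0.04 (95% interval -0.15 to 0.22), so the probes of this gene disagreed in direction.

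**Figure D3:**
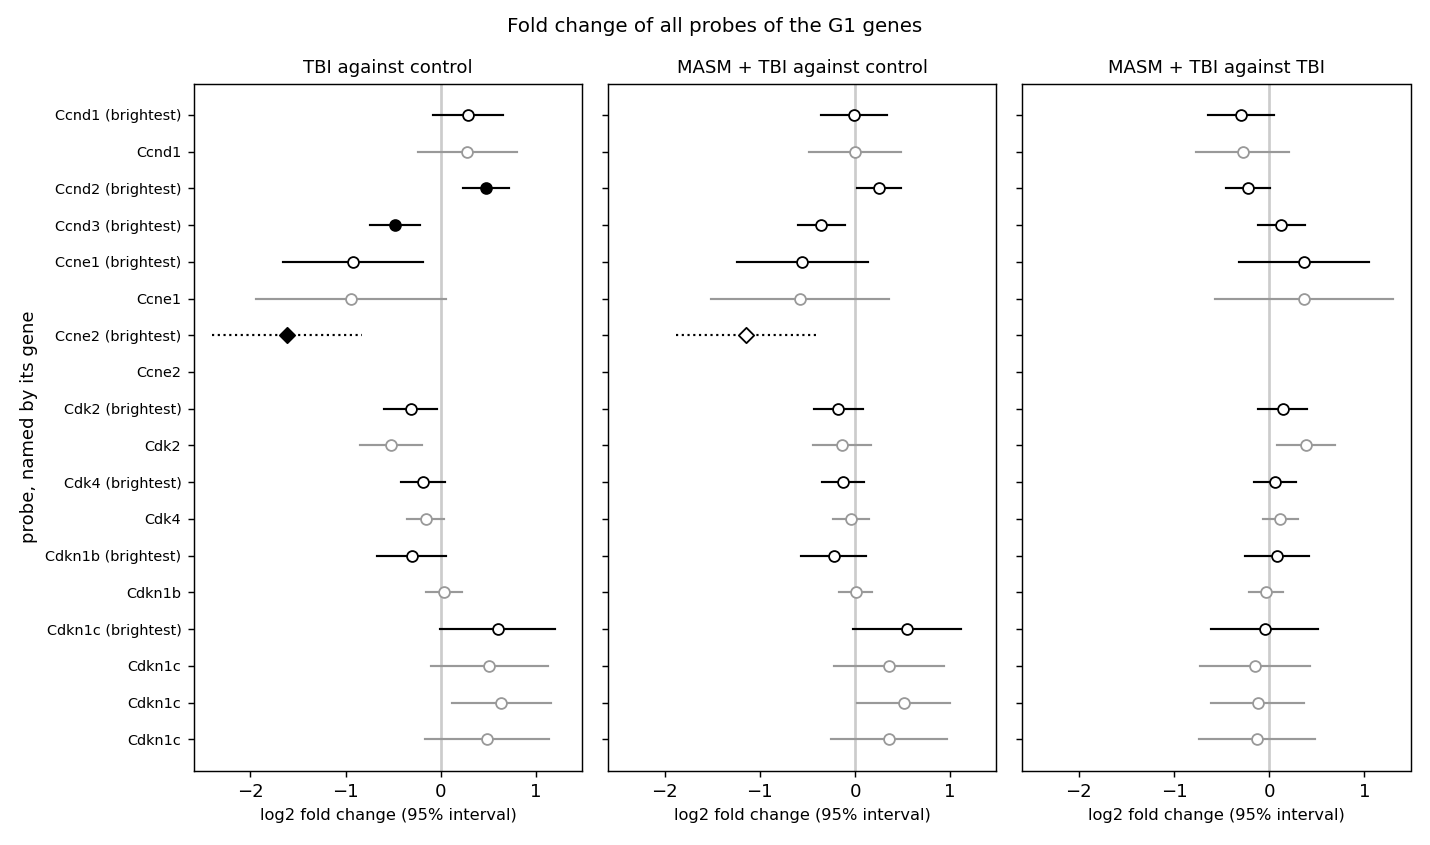
Log2 fold change (horizontal axis) with its 95% interval for the 18 probes of the G1 genes (vertical axis, black for the brightest probe of a gene and grey for the others) in the 3 comparisons. Filled marks have an adjusted p under 0.05, diamonds with dotted lines have a group not well above background on any array, and values with both groups so are left out. Of the values drawn, only Ccnd2, Ccnd3 and Ccne2 in TBI against control are filled.

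The second question was whether the G1 genes of rats given MASM before TBI differed from control rats. These values use the same 3 control rats as the comparison above, so the results are not independent of each other. Of the 9 genes, 0 were called by limma in either direction, against 1.24% of all genes higher and 2.46% lower. At an unadjusted p under 0.05 limma gave 3 genes, Ccnd2, Ccnd3 and Ccne2, against 20.5% of all genes. The methods' t-test gave 2, Ccnd2 and Ccne2, against 17.7%, and 0 after adjustment, against 0.127%. With equal variances it gave 5, adding Ccnd3, Cdk2 and Cdkn1c, against 22.1%. The same thresholds on the p of limma with the fold took 1 gene, Ccne2, against 9.18% of all genes. The groups did not overlap for 1 gene that was higher, Cdkn1c, and 3 that were lower, Ccnd3, Ccne2 and Cdk2, while 10.2% and 12.1% of all genes were without overlap in these directions. The median log2 fold change of the 9 genes was -0.17.

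Among the D cyclins, Ccnd3 was at 8.53, 8.68, 8.62 and 8.59 in MASM + TBI rats, all below the control rats. Its log2 fold change was -0.35 (95% interval -0.60 to -0.11, adjusted p = 0.131), and MASM + TBI rat 3, which shared a slide with the control rats, was at -0.34 against their mean. Ccnd2 was at 8.15, 8.16, 8.02 and 8.29, of which rat 3 was within the control range and the others above it. For Ccnd2 the log2 fold change was 0.25 (95% interval 0.02 to 0.48, adjusted p = 0.242), and 0.12 within the slide. Ccnd1 was at 12.19, 11.89, 12.26 and 12.28, inside the control range, with a log2 fold change of -0.01 (95% interval -0.36 to 0.33).

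The E cyclins of MASM + TBI rats were more spread. Ccne2 was at 3.13, 2.59, 3.92 and 3.01, not well above background in any of the 4, and was at least 1.38-fold lower than in control rats (adjusted p = 0.108). The lowest signal well above background was 3.68 to 4.09 on MASM + TBI arrays and 2.54 to 3.16 on TBI arrays. The bounds of these groups therefore cannot be set against each other. Without MASM + TBI rat 3, the highest of the group, the Ccne2 difference was called (adjusted p = 0.0437). It was also called with slide as a random block (adjusted p = 0.0345), a fit that raised the calls over all probes from 1225 to 2852, and with the mean over both probes (adjusted p = 0.00528), of which the second was not well above background on any array. That second probe was at 1.59, 1.63, 1.68 and 1.57 in MASM + TBI rats, below all control rats (adjusted p = 0.000478), and no fold is given for it. Its p has the limit given for TBI rats, which the mean over both probes shares. Ccne1 was at 7.98, 7.22, 8.54 and 7.98, with rat 3 within the control range and the others below it. Its log2 fold change was -0.55 (95% interval -1.24 to 0.13, adjusted p = 0.417), but 0.05 within the slide that rat 3 shared with the control rats, where Ccne2 was at -0.39. The part of the slide in these values was not tested further, since 1 rat carries it.

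Kinases and inhibitors of MASM + TBI rats did not pass the test. Cdk2 was at 8.51, 8.60, 8.60 and 8.64, all below the control rats by a small margin, with a log2 fold change of -0.17 (95% interval -0.43 to 0.08, adjusted p = 0.515) and -0.16 within the slide. Cdk4 was at 9.81, 9.77, 9.83 and 9.74, with a log2 fold change of -0.13 (95% interval -0.35 to 0.09). Cdkn1c was at 8.86, 8.89, 8.80 and 8.64, all above the control rats, although rat 4 was above control rat 1 by very little. For Cdkn1c the log2 fold change was 0.55 (95% interval -0.02 to 1.11, adjusted p = 0.310), with 0.55 within the slide, and the other 3 probes gave 0.36, 0.36 and 0.51. Cdkn1b was at 8.95, 9.19, 9.01 and 9.10, with a log2 fold change of -0.23 (95% interval -0.56 to 0.11), and its second probe gave 0.01. The second probes of the other genes gave -0.58 for Ccne1 (adjusted p = 0.552), -0.14 for Cdk2 (adjusted p = 0.703) and -0.04 for Cdk4 (adjusted p = 0.920).

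The third question was whether MASM changed the G1 genes of irradiated rats. Of the 9 genes, 0 were called by limma at the adjusted p, against 0.387% of all genes called higher and 0.693% called lower, and 0 at an unadjusted p under 0.05, against 16.5%. The methods' t-test gave 0 unadjusted and 0 adjusted, against 10.7% and 0.00745%. With the fold, the thresholds on the p of limma took 0 genes, against 7.82% of all genes. Over all probes 56.0% of the calls were higher, but 82.4% when arrays were scaled to their 75th percentile, with 0 calls in the set there too. Ccnd1 was the 1 gene without overlap, with every MASM + TBI rat (11.89 to 12.28) below every TBI rat (12.30 to 12.58), while 7.49% of all genes were without overlap and lower and 9.75% without overlap and higher. The Ccnd1 log2 fold change was -0.30 (95% interval -0.64 to 0.05, adjusted p = 0.374), and on the other probe the groups overlapped (-0.28, adjusted p = 0.554). Its highest MASM + TBI rat and lowest TBI rat were almost level.

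On their brightest probes, the other genes with a fold had intervals that took in 0. The log2 fold change between MASM + TBI and TBI rats was -0.22 for Ccnd2 (95% interval -0.45 to 0.01), 0.13 for Ccnd3 (-0.12 to 0.37) and 0.37 for Ccne1 (-0.32 to 1.05). Ccne2 was not well above background in either group, and no fold is given. The values were 0.14 for Cdk2 (-0.11 to 0.40), 0.06 for Cdk4 (-0.16 to 0.28), 0.08 for Cdkn1b (-0.25 to 0.42) and -0.05 for Cdkn1c (-0.61 to 0.52). On the dimmer Cdk2 probe MASM + TBI rats were at 4.73 to 4.89 and TBI rats at 4.07 to 4.65, without overlap, and the log2 fold change was 0.39 (95% interval 0.08 to 0.70, adjusted p = 0.193). The second Cdk4 probe was also without overlap, at 0.12 (adjusted p = 0.502), and the other second probes gave 0.37 for Ccne1, -0.03 for Cdkn1b and -0.15 to -0.12 for Cdkn1c. The median over the 9 genes was 0.08, and over all genes 0.01.

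Genes that act just before and after the G1 kinases were taken as 3 further lists. Of 13 RB and E2F genes, 8 had a probe, of 24 other G1 regulators 22, and of 17 E2F target genes of S phase entry 15. In TBI rats 3 of these 45 genes were called higher and 12 lower, against 2.97% and 3.66% of all genes, and in MASM + TBI rats 3 and 10, against 1.24% and 2.46%. Without control rat 2 or 3 the TBI calls numbered 9 in each case in place of 15, and without control rat 2 the MASM + TBI calls numbered 8 in place of 13. Over all probes the TBI calls fell from 2305 to 1102 and 969 in these fits. The MASM + TBI calls over all probes fell from 1225 to 490. Both comparisons share the control rats.

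Cdkn1a, the inhibitor that p53 induces, was at 8.01, 8.25 and 8.84 in control rats, at 13.47, 13.67 and 14.06 in TBI rats and at 13.06, 13.23, 12.80 and 13.58 in MASM + TBI rats. The irradiated rats stood far above the control rats, while MASM + TBI and TBI rats overlapped. The log2 fold change against control rats was 5.36 in TBI rats (SE 0.27, adjusted p = 0.000130) and 4.80 in MASM + TBI rats (SE 0.25, adjusted p = 0.000146), and with MASM against without it -0.57 (95% interval -1.14 to 0.01, adjusted p = 0.304). Its relatives in the set, Cdkn1b and Cdkn1c, were not called in any comparison. Ccng1, a cyclin gene that p53 also induces, rose by 2.48 (adjusted p = 0.00283) and 2.59 (adjusted p = 0.00218) on the log2 scale in TBI and MASM + TBI rats.

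The inhibitors of Cdk4 and Cdk6 that fell were Cdkn2c (p18), by 1.58 in TBI rats (adjusted p = 0.0147), and Cdkn2d (p19), by 0.89 in TBI rats (adjusted p = 0.00247) and by 0.85 in MASM + TBI rats (adjusted p = 0.00259). For Cdkn2c in MASM + TBI rats the log2 fold change was -1.13 (adjusted p = 0.0509), just outside the threshold. Ccng2, a cyclin gene linked to cell cycle exit, fell by 0.68 (adjusted p = 0.0356) and by 1.08 (adjusted p = 0.00624) in TBI and MASM + TBI rats. Ccna2, the cyclin that follows the E cyclins on Cdk2, was not well above background in TBI rats, where its signal was at least 14.7-fold lower than in control rats (adjusted p = 0.00595). In MASM + TBI rats Ccna2 was well above background in 1 of 4, with an estimated log2 fold change of -3.28 (adjusted p = 0.0191).

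E2f1, an activating E2F factor, averaged 6.96 ± 0.13 across control rats (SD, n = 3), 4.60 ± 0.31 across TBI rats (n = 3) and 4.88 ± 0.34 with MASM (n = 4) as log2 signals. Against control rats it fell by 2.36 (adjusted p = 0.00139) and fell by 2.08 (adjusted p = 0.00218), without overlap in either comparison. It was the 1 gene of the RB and E2F list that was called, and the median log2 fold changes of that list were -0.03 and -0.10. Rb1, which encodes the RB protein, was at 0.72 (adjusted p = 0.329) in TBI rats, and Rbl2, an RB relative, at -0.39 (adjusted p = 0.116) in MASM + TBI rats.

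Genes of S phase entry that E2F controls had median log2 fold changes of -0.65 in TBI rats and -0.67 in MASM + TBI rats, while those over all genes were -0.01 and -0.00067. In TBI rats 7 of 15 fell and 1 rose, against 3.66% and 2.97% of all genes. Those that fell were the helicase subunits Mcm2 (-1.16, adjusted p = 0.00940), Mcm4 (-1.13, adjusted p = 0.0356), Mcm6 (-2.41, adjusted p = 0.00560) and Mcm7 (-0.48, adjusted p = 0.03), the nucleotide enzymes Rrm1 (-0.64, adjusted p = 0.0403) and Tk1 (-0.86, adjusted p = 0.0226), and the primase subunit Prim1 (-0.65, adjusted p = 0.00590). The gene that rose was Tyms, the thymidylate synthase, by 0.93 (adjusted p = 0.0142). In MASM + TBI rats 6 of 15 fell, with Mcm2, Mcm6, Mcm7, Tk1, Prim1 and the licensing factor Cdt1, against 2.46% of all genes, and Tyms rose by 0.97 (adjusted p = 0.0130), against 1.24%. Only 1 of the 3 TBI rats had Mcm6 well above background, so its value in TBI rats is an estimate. In MASM + TBI rats Mcm6 and Cdt1 were at least 2.90-fold and at least 1.58-fold lower than in control rats (adjusted p = 0.00981 and 0.0430).

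**Figure D4:**
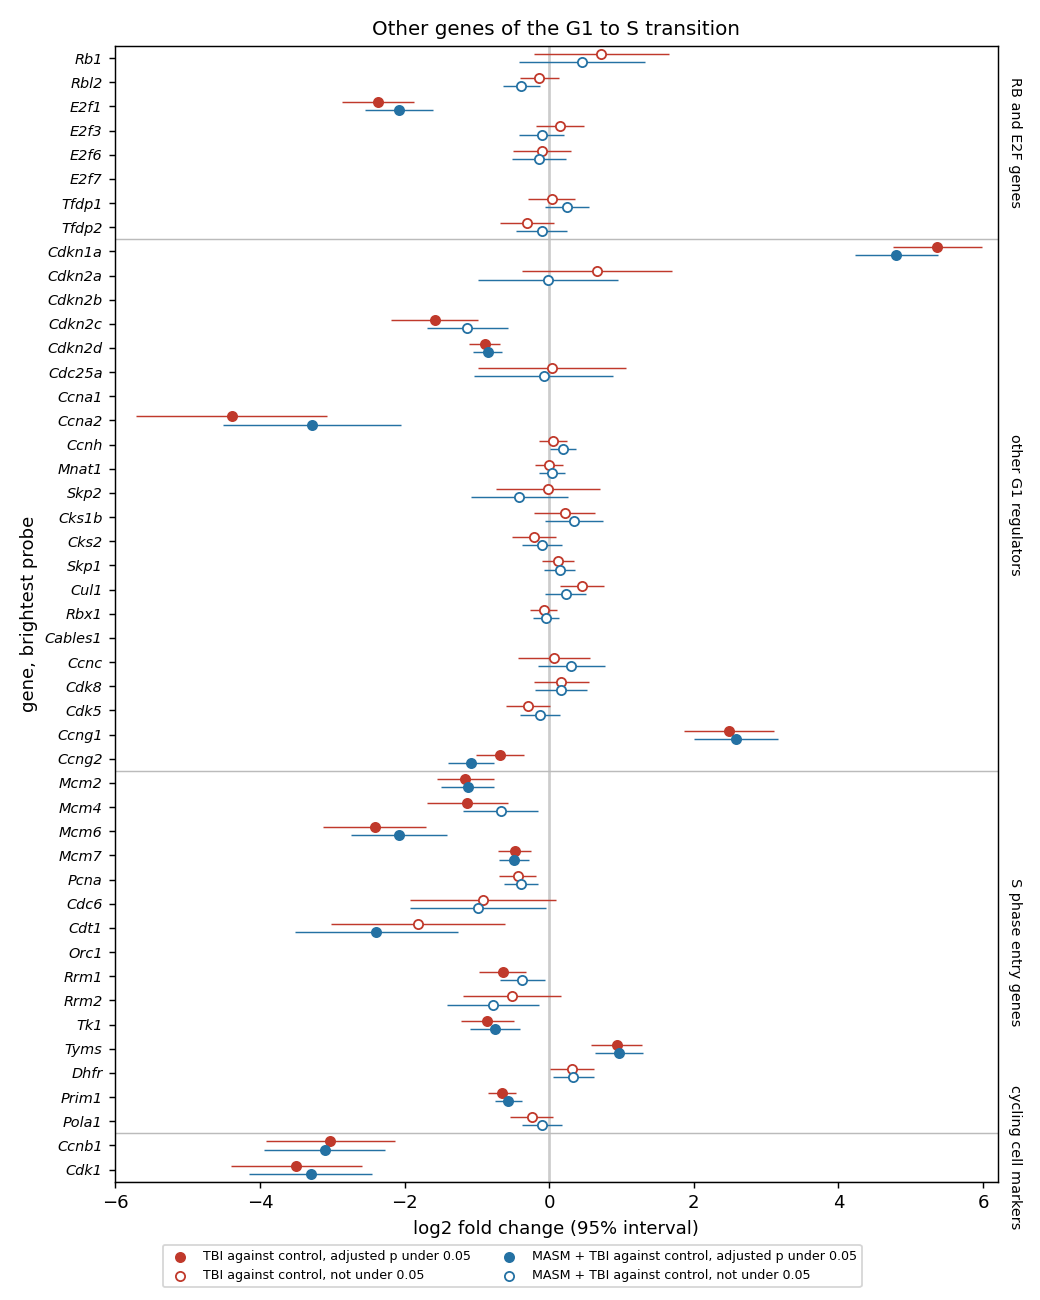
Log2 fold change (horizontal axis) with its 95% interval for other genes of the G1 to S transition and for 2 markers of cycling cells (vertical axis, brightest probe), in TBI rats (red) and MASM + TBI rats (blue) against the same control rats, filled at an adjusted p under 0.05. Genes with no usable fold are left blank, and Ccna2 in TBI rats and Mcm6, Cdt1 and Cdc6 in MASM + TBI rats are estimates below background. Cdkn1a and Ccng1 lie far to the right, and E2f1, Ccna2, Ccnb1, Cdk1 and Mcm6, with Cdt1 in MASM + TBI rats, far to the left.

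Of the 4 markers of cycling cells listed, 2 had a probe. Both were called lower in TBI rats, against 3.66% of all genes, and in MASM + TBI rats, against 2.46%. Cdk1, the kinase of mitosis, fell by 3.50 in TBI rats (adjusted p = 0.00329) and by 3.30 in MASM + TBI rats (adjusted p = 0.00383), and its cyclin Ccnb1 by 3.03 (adjusted p = 0.00560) and by 3.1 (adjusted p = 0.00454). Between MASM + TBI and TBI rats 0 of the 45 genes were called by limma, against 0.387% of all genes higher and 0.693% lower. At an unadjusted p under 0.05 there was 1, against 16.5%, and the methods' t-test gave 0 after adjustment, against 0.00745%. Without TBI rat 3, Cdkn2a, which encodes the inhibitors p16 and p19Arf, was called lower in MASM + TBI rats (-1.27, adjusted p = 0.0311), while with all rats it was at -0.68 (adjusted p = 0.468) and the groups overlapped.

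For the members called in a comparison whose probe was well above background on all arrays, the genes with the most similar values over the 10 arrays were listed among 8436 candidates, as a description. Ccnd2 followed Nrap (Pearson r = 0.961), Akp3 (0.951) and Ubqln1 (0.950) most closely. Ccnd3 followed Plbd2 (0.980), Cnpy3 (0.979) and Pigs (0.971). The 10 points share 3 groups and 3 slides, and no test is given.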

How the data were processed

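The authors deposited the scanner output of 10 one-colour arrays as linear intensity values, from which Feature Extraction 10.7.3.1 had subtracted the background, with no normalization across arrays. Their series table repeats these intensities (largest relative difference 0). The marks for spots well above background, for outliers and for saturation are those of the software, as deposited. Control spots (1639 of 45018 per array) and 76 to 112 outlier spots per array were left out, and 0 spots were saturated. After taking log2, the arrays were quantile normalized as in the study and spots averaged per probe, and 40945 of 41012 probes had a value on every array. Symbols came from RefSeq accessions (16968 probes), because the files used here hold no gene name column. A gene is represented by its brightest probe.

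A limma 3.58.1 model (R 4.3.3, data.table version 1.17.8) with 3 group means took in all 10 arrays (1.43 prior degrees of freedom), with Benjamini-Hochberg adjustment over all probes and a threshold of 0.05. It was tested on simulated data. Promoters and plots used Python 3.11.15, pandas 2.3.3 and matplotlib 3.10.9. Named genes are all members, the list genes that were called, Cdkn1a, and the 3 genes most correlated with each called member that was well above background on all arrays; Rb1, Rbl2, Cdkn2a, Ccna1, Cdc6 and single cell type markers were named after their values were seen. The summed level of 1 marker list is not reported here. The members and lists were chosen with earlier results of these data known. The number of rats limits the precision. Replicate numbers of different groups did not pair rats, as given in the closing section. Alternatives were scaling to the 75th percentile, normexp (offset 50, on median pixels since the files hold no mean), the series table in place of the scanner files, leaving out dim probes, another prior, the methods' t-test (form not stated by the study, run as Welch and, chosen after seeing the data, with equal variances), a model of only the 2 groups compared, slide and replicate blocks, the mean over probes, and leaving out each rat.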

Additional observations from a re-analysis of the deposited data

How the results depend on the processing

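Members called in TBI against control numbered 3, but 1 with normexp, 2 with dim probes left out (Ccne2 among those left out), 0 with only the 2 groups compared in the model, 0 with the methods' t-test in either form, 0 with the replicate block, 4 (Ccne1 the fourth) with slide as a random block, and 0 to 2 when a rat was left out. In MASM + TBI against control they numbered 0, but 1 (Ccne2) with slide as a random block or the mean over all probes, and 0 to 1 when a rat was left out. In MASM + TBI against TBI they numbered 0 in all of these fits. Other G1 to S genes called in TBI against control numbered 15, but 9 with only the 2 groups, 0 with the methods' t-test (2 with equal variances), 17 with the 75th percentile or normexp, 18 with slide as a random block and 9 to 16 when a rat was left out. In MASM + TBI against control they numbered 13, but 0 with the methods' t-test (8 with equal variances), 4 with the replicate block, 6 with slide as a fixed block and 8 to 15 when a rat was left out. In MASM + TBI against TBI they numbered 0, but 1 (Ccna1, not well above background) with scaling to the 75th percentile and 0 to 1 when a rat was left out. Over all probes, calls in TBI against control numbered 2305, but 972 with only the 2 groups and 10 with the methods' t-test. They numbered 2219 with normexp, 7458 with the 75th percentile, 6742 with slide as a random block and 969 to 2787 without a rat. In MASM + TBI against control they numbered 1225, but 40 with the methods' t-test and 526 with slide as a fixed block. Leaving out a rat gave 490 to 1488 there. The causes were not tested.

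The direction turned for Ccnd1 in MASM + TBI against control with the 75th percentile (0.11), with slide as a fixed block (0.094) and when a rat was left out (-0.16 to 0.10), and for Ccne1 in the same comparison with slide as a fixed block (0.054). It also turned in MASM + TBI against TBI for Cdkn1b (-0.091 to 0.22 when a rat was left out) and Cdkn1c (0.0045 with the replicate block, -0.28 to 0.25 when a rat was left out). Slide as a fixed block could be fitted for MASM + TBI against control alone, where 67.3% of calls over all probes were then higher in place of 42.1%. Of the 9 pairs of rats with the same number in different groups, 1 had a correlation of deviations over 0.1 (range -0.13 to 0.17, other pairs -0.13 to 0.15), so the numbers did not pair the rats. With the replicate block 10, 4 and 0 other G1 to S genes were called in the 3 comparisons. Over all probes that fit called 1053, 298 and 22. Dim probes such as those of Ccne2 are limited by signal over background.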
